A study of Mus musculus with 6 samples.

Results

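S100b, Gfap, Vim, Slc1a3, Glul, Anxa1, Aldoc and Cryab were followed as markers of folliculostellate and astroglia-like cells in the sorted stem cell side population of the mouse pituitary. The genes were chosen by name, and every probe whose gene name on the array was one of these symbols was taken. This gave 12 probes of 8 genes among 39429 probes on the array. Of the 8 genes, 6 had a probe well above background on all 6 arrays, and the exceptions were Gfap and Slc1a3.

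Folliculostellate cells are the non-hormonal, star-shaped cells of the anterior pituitary. They form a network joined by gap junctions, surround the hormone cells, take up debris, and release cytokines and growth factors that act on their neighbours. They were long recognised by the calcium-binding protein S100B, and they share several proteins with astrocytes of the brain, among them the filament protein GFAP, the glutamate transporter encoded by Slc1a3 and glutamine synthetase, encoded by Glul. Annexin A1, encoded by Anxa1, is known in this tissue as a product of folliculostellate cells that carries glucocorticoid feedback to the corticotropes.

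All mice were female and carried iDTR, an inducible diphtheria toxin receptor that Cre recombinase switches on. Control mice (-/iDTR) carried the receptor without a driver, and GHCre mice (GHCre/iDTR) also had Cre under growth hormone control, which directs the toxin to cells that use that promoter. Toxin was given to both genotypes in 2 daily doses of 4 ng per g of body weight over 3 or 10 days, so the controls had the toxin too, and no untreated mice entered these comparisons. The neurointermediate lobe was removed, the anterior pituitary was dissociated with trypsin, and cells that pump out Hoechst dye and do not have the highest Sca1 were sorted. There were 2 control and 2 GHCre arrays after 3 days, and 1 control and 1 GHCre array after 10 days. The design text calls the samples of a group independent, but the labels do not say how many animals went into each, so p-values measure the spread between these samples only. Mouse ages are not given in the sources used here. In RNA from a sorted bulk fraction, a change in the share of cells that carry a transcript and a change in its amount per cell cannot be told apart.

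The 6 arrays lay on 3 slides. Slide 1 held replicate 1 of both genotypes after 3 days, slide 3 held replicate 2 of both and the GHCre array of 10 days, and the control of 10 days was alone on slide 2, so for that array slide and group cannot be told apart. Between 53.8% and 65.7% of probes were well above background, the lowest share being in replicate 1 of the 3 day controls. Gh, the transcript of the targeted cells, was lower in GHCre than in control within each slide after 3 days (5.46 against 5.69 and 2.20 against 3.65) and after 10 days (2.21 against 7.86), but the groups of 3 days overlapped. Sox2, which marks pituitary stem cells, was not above background on any array, which does not show that it is absent. A level is the log2 of the signal over the 75th percentile of its array, so 0 is the level of a probe at that percentile. A pair of values gives replicate 1 and then replicate 2 of 3 days, or control and then GHCre of 10 days. Differences between levels carry the standard error (SE) of a limma fit across 20920 genes, and adjusted p is Benjamini-Hochberg over all of these. They are GHCre minus control unless said otherwise.

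After 3 days of toxin, the markers lay mostly on the higher side in the GHCre side population. S100b, Slc1a3, Anxa1, Aldoc, Vim and Glul, 6 of the 8 genes, had both GHCre arrays above both control arrays, whereas 16.7% of all genes tested did so. None of the 8 lay below without overlap on its brightest probe, against 21.3% of all genes. Among the 6 markers above background on every array the count was 5, against 15.9% of the genes measured as widely. Slc1a3 entered the fit only through the arrays on which it is bright. The median difference of the 8 markers was 0.87, against -0.04 over all genes, and it was 0.57 without replicate 2 of the controls. No marker passed the adjusted threshold of 0.05, nor did any other gene in the limma fit (0% called), although 1376 genes (6.58%) had an unadjusted p under it. Each difference below is therefore a measured size with a wide interval, not a call.

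**Figure D1:**
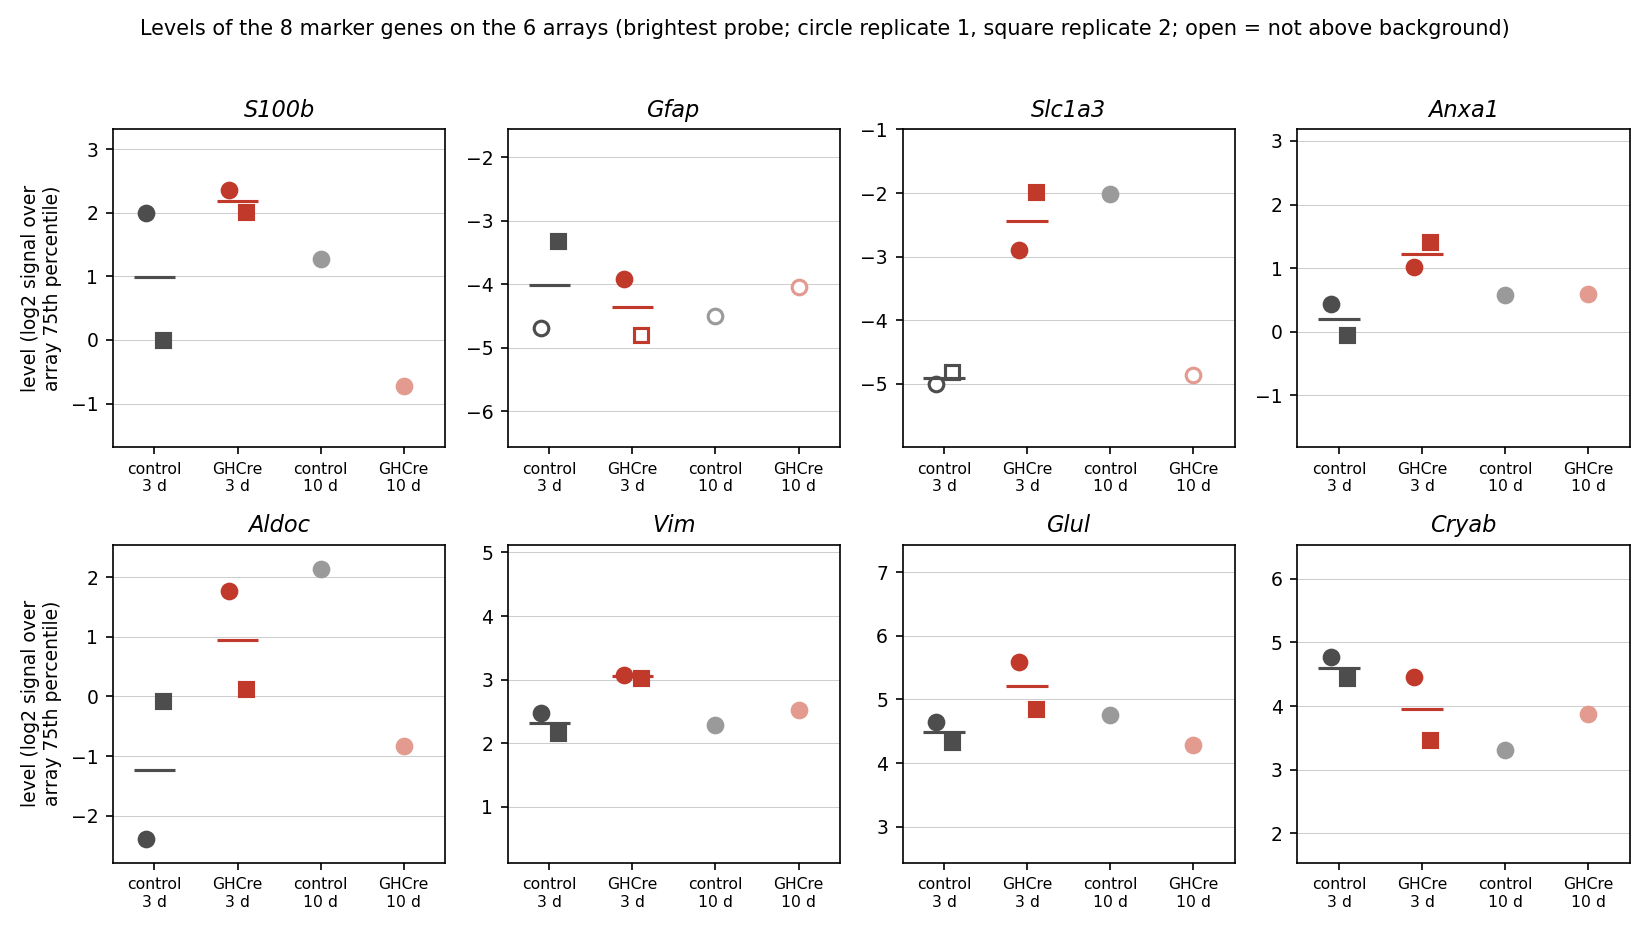
Level of each marker (log2 signal over the array's 75th percentile, vertical axis) on the 6 arrays, by genotype and days of toxin, for the brightest probe. Filled points are well above background, open points are not, circles are replicate 1, squares replicate 2 and bars the mean of 2 arrays. In 6 panels both GHCre arrays of 3 days lie above both controls, S100b by the narrowest margin, while Gfap lies between -4.80 and -3.32 on all arrays.

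S100b encodes the calcium-binding protein by which folliculostellate cells are usually stained. Its probe lies on mm9 chr10:75723783-75723842 (plus strand) and was above background on every array. After 3 days the level was 2.00 and -0.01 on the control arrays and 2.36 and 2.00 with GHCre. After 10 days it was 1.27 with control and -0.73 with GHCre, the lowest of the 6. The GHCre arrays of 3 days were the highest, but replicate 1 of the controls reached them to within the second decimal, and only replicate 2 stood clearly lower. The 3 day difference was 1.19 ± 0.82 (SE, n = 2 and 2, 95% interval -1.09 to 3.46), with an adjusted p from limma of 0.864. It was 0.36 within slide 1 and 2.01 within slide 3, and without replicate 2 of the controls it was 0.18. Ordered by level, the groups ran from GHCre after 3 days (2.18 ± 0.25, SD) through control after 10 days and control after 3 days (1.00 ± 1.42) to GHCre after 10 days, and the control of 10 days lay inside the range of the 3 day controls.

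Gfap, the classical astrocyte filament protein, has 3 probes on the array, all on the minus strand of mm9 chr11. A_52_P52303 (chr11:102751813-102751872) and A_55_P2157245 (chr11:102752726-102752785) were not well above background on any array. The files assign these to 1 transcript record and A_55_P2157250 (chr11:102748864-102748923), the brightest, to another. A_55_P2157250 passed background on 2 arrays, replicate 1 of the GHCre group and replicate 2 of the controls after 3 days. Its levels were -4.69 and -3.32 on the control arrays and -3.92 and -4.80 with GHCre after 3 days, and -4.49 and -4.04 in control and GHCre after 10 days. The groups of 3 days overlapped in part, and the difference of -0.36 ± 0.70 (adjusted p from limma 0.934) was 0.77 within slide 1 and -1.49 within slide 3, and it turned to 0.33 without replicate 2 of the controls and to 0.09 without replicate 2 of the GHCre group. A Gfap transcript was therefore at the edge of detection in both genotypes, which does not show that it is absent.

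Vim encodes vimentin, the filament protein of mesenchymal cells and of many immature and glial cells. Its probe (mm9 chr2:13504232-13504291, plus strand) varied little, with an SD of 0.38 over the 6 arrays. After 3 days the levels were 2.48 and 2.16 on the control arrays and 3.08 and 3.02 with GHCre, and after 10 days 2.29 and 2.52. The GHCre arrays of 3 days were the highest of the 6, close to each other, and clear of the other 4. The 3 day difference was 0.73 ± 0.41 (95% interval -0.41 to 1.86, adjusted p from limma 0.854), equal to a 1.66-fold higher level, and it was similar on both slides at 0.60 and 0.86. After 10 days the difference was 0.23 ± 0.58. The remaining groups lay in the order GHCre after 10 days, control after 3 days (2.32 ± 0.23, SD) and control after 10 days, with the first of these just above the highest 3 day control.

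Slc1a3 encodes the glial glutamate and aspartate transporter, which clears glutamate from the extracellular space. Its probe (mm9 chr15:8584236-8584295, minus strand) was dim and was well above background on 3 arrays, namely both GHCre arrays of 3 days and the control of 10 days. The processed signals, in scanner units, were 5.8 and 8.9 on the control arrays and 40.0 and 75.4 with GHCre after 3 days, and 63.2 and 9.4 in control and GHCre after 10 days. As levels these were -5.01 and -4.81, -2.90 and -1.98, and -2.02 and -4.86. The 3 detected arrays and the 3 undetected ones thus form separate ranges, and they do not divide by genotype or by day alone.

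The 3 day controls and the GHCre array of 10 days were not above background for Slc1a3. Differences from them are therefore also given as a bound, here and for other dim genes. The bound sets each dim array to no less than its lowest signal among probes above background. Undetected probes can exceed that signal, as Gfap probes did on the GHCre array of 10 days. The bound is thus not a strict lower limit. By that bound the level was 2.70-fold higher in GHCre after 3 days and 4.75-fold lower in GHCre after 10 days. The measured differences were 2.47 ± 0.51 after 3 days (adjusted p from limma 0.692) and -2.84 ± 0.73 after 10 days (adjusted p 1.00). These use the values of arrays that were not above background. Both slides gave the 3 day difference, at 2.11 and 2.83. With normexp background correction and an offset of 50 it was 0.40 with 75th percentile scaling and 0.67 with quantile normalization, and the 10 day difference was -0.88 and -0.79.

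Glul encodes glutamine synthetase, which turns glutamate taken up by glia into glutamine. The probe (mm9 chr1:155756765-155756824, plus strand) was bright on every array. After 3 days the levels were 4.65 and 4.33 on the control arrays and 5.59 and 4.85 with GHCre. After 10 days they were 4.75 with control and 4.28 with GHCre. GHCre replicate 1 of 3 days stood apart as the highest, and the GHCre array of 10 days was the lowest. The 3 day difference was 0.73 ± 0.48 (95% interval -0.61 to 2.07, adjusted p from limma 0.864), with 0.93 on slide 1 and 0.52 on slide 3, and it was 0.36 without GHCre replicate 1 and 1.10 without GHCre replicate 2. Below the GHCre group of 3 days (5.22 ± 0.52, SD) the order was control after 10 days, control after 3 days (4.49 ± 0.23) and GHCre after 10 days, each of the lone arrays lying close to a 3 day control.

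Anxa1 has 2 probes, both on the minus strand of mm9 chr19 and both above background on every array. The brightest, A_55_P2092826 (chr19:20447938-20447997), gave 0.44 and -0.05 on the control arrays and 1.02 and 1.42 with GHCre after 3 days, then 0.58 and 0.60 in control and GHCre after 10 days. The second, A_66_P120567 (chr19:20449722-20449781), gave -0.92 and -1.57 on the control arrays and 0.18 and 0.09 with GHCre after 3 days, then -0.93 and -0.62. On both probes the GHCre arrays of 3 days were the highest of the 6 and did not overlap the controls. The 3 day difference was 1.02 ± 0.45 on the first probe (95% interval -0.23 to 2.27, adjusted p from limma 0.801), equal to 2.03-fold, and 1.38 ± 0.48 on the second (adjusted p 0.739 in a fit across 27249 probes, of which 0% were called). Every within-slide value was positive, at 0.58 and 1.46 for the first probe and 1.11 and 1.66 for the second. After 10 days the genotypes differed by 0.01 ± 0.64 (95% interval -1.75 to 1.78) on the first probe and by 0.31 on the second, so a difference of the 3 day size lies inside the interval there.

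The sequence of a second probe is given for the 3 genes with several probes. Each of these probes lies at another genomic position than the brightest probe of its gene. They are those described for Anxa1 and Gfap and, for Cryab, the probe at mm9 chr9:50561458-50561517 (plus strand). All are 60 bases, as the deposited files list them.
Anxa1 A_66_P120567: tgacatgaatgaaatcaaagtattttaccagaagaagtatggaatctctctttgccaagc
Cryab A_55_P2007656: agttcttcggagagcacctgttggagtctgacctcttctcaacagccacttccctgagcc
Gfap A_55_P2157245: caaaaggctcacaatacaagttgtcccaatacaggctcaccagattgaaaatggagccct

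Aldoc encodes aldolase C, the brain-type isoform of a glycolytic enzyme, which astrocytes express. It varied the most of the markers above background on every array, with an SD of 1.67 over the 6 arrays. Its probe (mm9 chr11:78140198-78140257, plus strand) gave -2.39 and -0.08 on the control arrays and 1.76 and 0.13 with GHCre after 3 days. After 10 days it gave 2.14 with control, the highest of the 6, and -0.83 with GHCre. The GHCre arrays of 3 days lay above the controls, but replicate 2 did so by only 0.20, against 4.15 within slide 1. The 3 day difference of 2.18 ± 1.07 (95% interval -0.79 to 5.15, adjusted p from limma 0.830) was 1.02 when control replicate 1 was left out and 3.33 when control replicate 2 was. With normexp it was smaller, at 1.40 with 75th percentile scaling and 1.43 with quantile normalization. In the order of levels, control after 10 days came before GHCre after 3 days (0.95 ± 1.16, SD), GHCre after 10 days and control after 3 days (-1.23 ± 1.63), and GHCre after 10 days lay inside the range of the 3 day controls.

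Cryab encodes alpha B-crystallin, a small heat shock protein that holds unfolding proteins and is abundant in glia and muscle. It lay on the lower side in GHCre after 3 days. On the brightest probe, A_55_P1964408 (mm9 chr9:50564566-50564625, plus strand), the levels were 4.77 and 4.44 on the control arrays and 4.45 and 3.47 with GHCre after 3 days, then 3.30 and 3.88 after 10 days. The groups of 3 days overlapped narrowly on this probe. On A_55_P2007656 the values were 3.45 and 3.26 on the control arrays and 3.16 and 2.47 in the GHCre arrays, then 2.26 with control and 2.60 with GHCre after 10 days, and the GHCre arrays lay below the controls without overlap. The 3 day difference was -0.64 ± 0.54 (95% interval -2.13 to 0.84, adjusted p from limma 0.871), with -0.32 on slide 1 and -0.97 on slide 3, and it was -1.14 without GHCre replicate 1 and -0.15 without GHCre replicate 2. The control of 10 days was the lowest array on both probes.

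**Figure D2:**
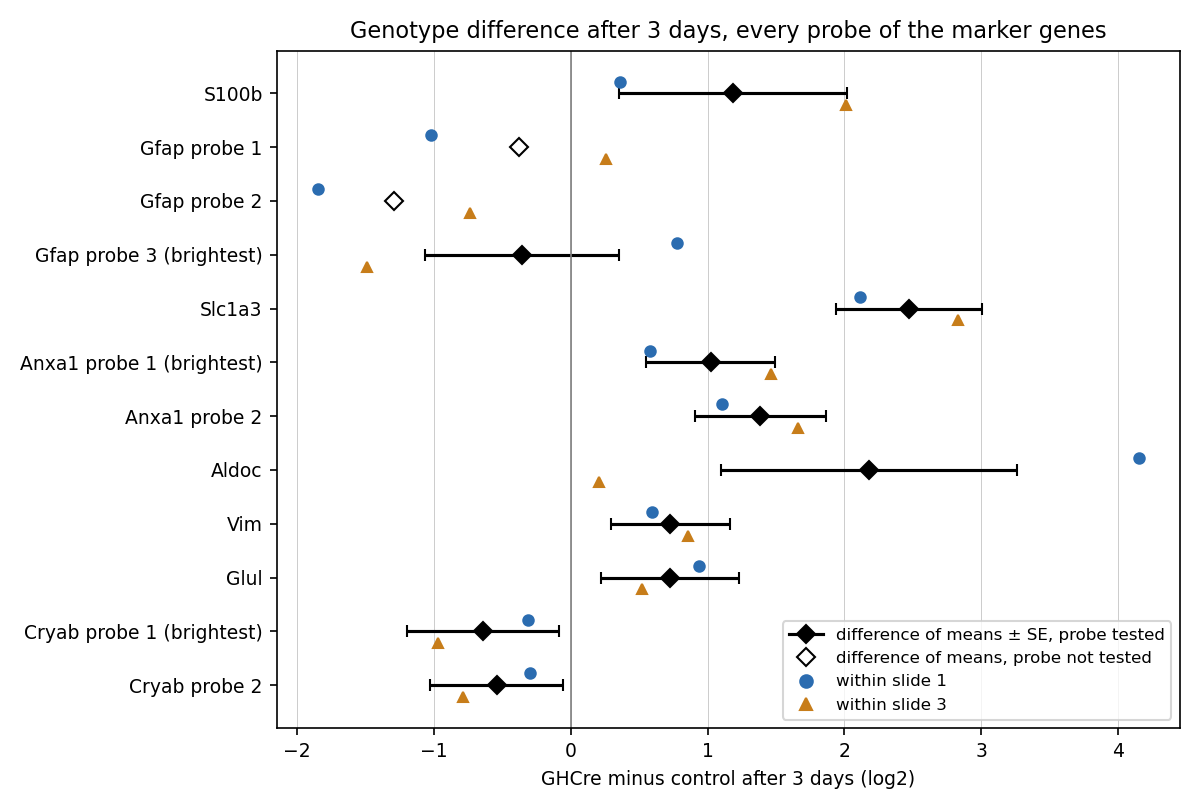
GHCre minus control after 3 days (log2, horizontal axis) for the 12 probes, with the difference of means ± SE from the probe fit as filled diamonds, untested dim probes as open diamonds, and the differences within slide 1 (circles) and slide 3 (triangles). Both slides lie to the right of 0 for S100b, Slc1a3, Anxa1, Aldoc, Vim and Glul and to the left for Cryab, and the brightest Gfap probe lies on either side.

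After 10 days the markers were divided, with 4 below the control in GHCre and 4 above it. S100b, Slc1a3 and Aldoc, 3 of the 8, had at least 2-fold less signal with GHCre than with control (14% of all genes tested), and none was at least 2-fold higher (12.7% of all genes). Among the markers above background on every array these were 2 of 6, against 9.86% of such genes. The median difference of the markers was -0.23, against -0.00 over all genes. S100b differed by -2.003 ± 1.16, Aldoc by -2.97 ± 1.52 and Glul by -0.47 ± 0.69, while Vim (0.23), Gfap (0.46), Cryab (0.58) and Anxa1 (0.01) were above 0. These values compare 1 array with 1 array, the errors assume that each varies like the arrays of 3 days, and no gene was called (0%, limma, with 3.02% of genes at an unadjusted p under 0.05). On the same arrays 6 of 13 hormone cell genes were at least 2-fold lower in GHCre and 1 at least 2-fold higher, with a median of -0.76 and Gh at -5.65. Lower and higher by at least 2-fold were 4 and 2 of 21 glial genes and 3 and 1 of 13 macrophage genes. For fibroblasts and pericytes these counts were 2 and 0 of 14, and for Schwann cells 1 and 2 of 8. Among all genes the shares were 14% and 12.7%. The part of these cells in the marker values of 10 days was not tested.

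The sign differed between the days for S100b, Slc1a3, Aldoc and Glul. These 4 of the 8 markers were above the controls without overlap after 3 days and below the control after 10 days, as were 8.18% of all genes, and among markers above background on every array they were 3 of 6, against 7.8%. The change of the genotype difference from 3 to 10 days was -5.15 ± 1.86 for Aldoc (unadjusted p 0.04997), -3.19 ± 1.42 for S100b (0.0878) and -1.20 ± 0.84 for Glul (0.226). The adjusted p from limma was 0.9999 for each of the 4 markers, and 0% of genes were called (3.94% at an unadjusted p under 0.05). For Slc1a3 the value was -5.30 with the signal of the 3 undetected arrays taken as measured, and -1.28 and -1.45 with normexp and either scaling. For Aldoc normexp gave -3.90 with 75th percentile scaling and -4.01 with quantile normalization.

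Over time, Slc1a3 and Aldoc ran in opposite ways in the 2 genotypes, and the test of that contrast is the one just given. In control mice Slc1a3 and Aldoc were at least 2-fold higher after 10 than after 3 days (16.7% of all genes were), and Cryab was at least 2-fold lower (9.14% of all genes). The control differences were 2.89 ± 0.63 for Slc1a3 (3.62-fold by the bound), 3.37 ± 1.31 for Aldoc and -1.30 ± 0.66 for Cryab. In GHCre mice S100b, Slc1a3 and Aldoc were at least 2-fold lower after 10 than after 3 days (11.2% of all genes). Of the 6 markers above background on every array, 2 were at least 2-fold lower (8.34% of such genes). In GHCre mice no marker was at least 2-fold higher (14% of all genes). There the differences were -2.91 ± 1.00 for S100b, -2.41 ± 0.63 for Slc1a3 (3.55-fold lower by the bound) and -1.77 ± 1.31 for Aldoc. The GHCre array of 10 days shares slide 3 with replicate 2 of the GHCre arrays of 3 days, and within that slide the values were -2.74, -2.87 and -0.96. Glul (-0.94 ± 0.59), Anxa1 (-0.62 ± 0.55) and Vim (-0.53 ± 0.50) were also lower after 10 days in GHCre, and Cryab differed by -0.08 ± 0.66. With normexp the Slc1a3 values were 0.71 and 0.76 in controls and -0.57 and -0.70 in GHCre. Those of Aldoc were 2.46 and 2.59 in controls and -1.43 and -1.42 in GHCre. No gene was called in either genotype (0%, limma, with 4.04% in controls and 4.02% in GHCre at an unadjusted p under 0.05). These comparisons share arrays with those between genotypes and are not separate evidence.

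**Figure D3:**
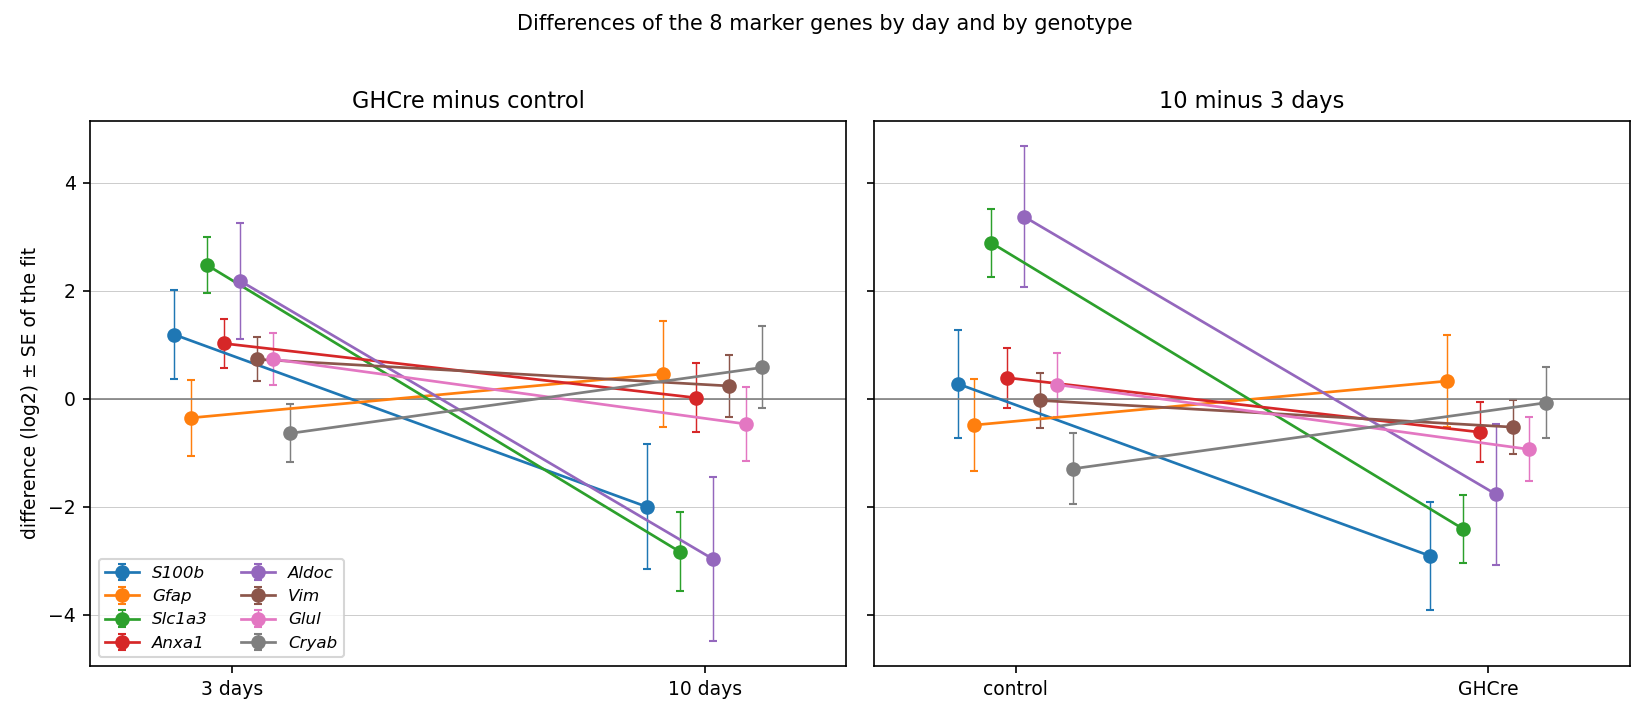
Differences of the 8 markers (log2 ± SE of the fit, vertical axis, undetected arrays as measured), as GHCre minus control after 3 and 10 days on the left and as 10 minus 3 days in control and GHCre mice on the right, with a line joining the values of 1 gene. Slc1a3, Aldoc and S100b run from above 0 after 3 days to -2.84, -2.97 and -2.003 after 10 days, while Anxa1 and Vim end near 0.

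The shapes over the 6 arrays were compared by the root mean square difference of levels centred on each gene's own mean, among 11779 named genes above background on every array. Anxa1 and Vim were the closest pair of markers at 0.21, followed by Vim and Glul at 0.28 and Anxa1 and Glul at 0.39, and Aldoc and Cryab were the farthest apart at 1.87. The genes nearest to S100b were Plekhg2 (0.28), S100a16 (0.29), another S100 protein, and Cdk14 (0.29), where the median gene lay at 1.24, and for the other markers the median gene lay between 0.62 (Vim) and 1.62 (Aldoc). Nearest to Vim were Bhlhe40 (0.06), Prdm2 (0.09) and Tmsb10 (0.10), and nearest to Glul were C1ra (0.08), Ccn1 (0.10) and Borcs8 (0.11). Carm1 (0.11), Csad (0.12) and Slc17a9 (0.12) were nearest to Anxa1, Pde1b (0.51), Wipf3 (0.52) and Sobp (0.53) to Aldoc, and Poli, Tsr3 and Mtcl1 (each at 0.15) to Cryab. With 6 arrays and so many genes, some lie close to any pattern, and these distances describe likeness only.

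RefSeq promoter windows (GRCm38.p6) matched 7 of the 8 genes. They are given for Anxa1, Vim and Glul, the 3 markers most alike over the arrays, and for Slc1a3, whose levels split into detected and undetected arrays. Each is the 250 bases before the start, 5′ to 3′ on the gene's strand, and capitals mark motif matches. The windows are at chr19:20390672-20390921 (minus) for Anxa1, chr2:13574061-13574310 (plus) for Vim, chr1:153899679-153899928 (plus) for Glul and chr15:8710808-8711057 (minus) for Slc1a3.
Anxa1: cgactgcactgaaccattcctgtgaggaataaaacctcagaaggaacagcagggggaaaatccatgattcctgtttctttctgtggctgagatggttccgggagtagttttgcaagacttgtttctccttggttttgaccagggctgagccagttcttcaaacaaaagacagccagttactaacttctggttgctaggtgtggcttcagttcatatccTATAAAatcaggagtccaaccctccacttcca
Vim: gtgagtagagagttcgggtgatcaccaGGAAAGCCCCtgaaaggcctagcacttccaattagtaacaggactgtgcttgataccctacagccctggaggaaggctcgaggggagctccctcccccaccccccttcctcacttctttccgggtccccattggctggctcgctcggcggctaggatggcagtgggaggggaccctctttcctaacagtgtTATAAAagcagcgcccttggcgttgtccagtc
Glul: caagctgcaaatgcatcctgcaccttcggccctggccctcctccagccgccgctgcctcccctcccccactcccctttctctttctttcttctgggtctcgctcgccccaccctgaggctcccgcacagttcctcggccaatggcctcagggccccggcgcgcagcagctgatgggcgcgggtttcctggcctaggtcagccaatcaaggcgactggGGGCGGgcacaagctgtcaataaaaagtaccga
Slc1a3: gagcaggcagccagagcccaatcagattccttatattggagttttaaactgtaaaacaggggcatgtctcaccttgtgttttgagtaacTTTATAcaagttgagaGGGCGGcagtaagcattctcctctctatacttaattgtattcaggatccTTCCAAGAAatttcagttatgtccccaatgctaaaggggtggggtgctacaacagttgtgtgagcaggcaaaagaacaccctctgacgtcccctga

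Motifs were searched on both strands, and matches of different motifs did not overlap in these windows. The TATA box letters TATAAA, present in 12.37% of 32851 windows, began 32 bases before the start in both Anxa1 and Vim, and 161 bases before it on the opposite strand in Slc1a3. The GC box GGGCGG (32.74% of windows) was found in Glul, Slc1a3 and a window of Aldoc. The STAT motif TTCNNNGAA (7.02%) was found in Slc1a3 and in another Aldoc window, and the NF-kB motif, GGGNN followed by TTTCC (1.412%), in Vim alone among the markers. The AP-1 motif TGACTCA (4.463%), the CRE TGACGTCA (1.546%) and the glucocorticoid response element, GNACA and TGTNC with NNN between them (0.3866%), had no match in any of the markers' windows, nor did S100b or Gfap match any motif searched. A match describes letters in the window and not binding, and no match says only that these letters are not in this window.

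The related families were then read after 3 days, each without the markers. Some genes stand in more than 1 list and count in each. Des is in those of filaments and of fibroblasts and pericytes, and Krt8 in those of filaments and stem cells. A family is given by how many of its tested members had both GHCre arrays above or below both controls, against 16.7% and 21.3% of all genes, and by its median difference, against -0.04. None of the genes named from these lists passed the adjusted threshold, and every list had 0 called genes. The counts include genes that, like Slc1a3, entered the fit only through the arrays on which they are bright. Of 21 glial and astrocyte genes, 4 lay above and 4 below, with a median of 0.31, and 14 of the differences were above 0 and 7 below it. Fabp7, a fatty acid binding protein of radial glia, was above background on only 3 arrays and was 3.97-fold lower in GHCre by the bound. Ntrk2, the receptor for BDNF, differed by -1.31 ± 0.43 on its brightest probe. Its other probes gave -2.46, above background on 6 arrays, and 0.67, above background on 2. Of 11 known products and receptors of folliculostellate cells, 4 lay above and 1 below, with a median of 0.47. Il6, a cytokine known as a folliculostellate cell product, stood at 1.66 and 1.59 on the control arrays and 4.22 and 4.36 in the GHCre arrays. That was a difference of 2.67 ± 0.40 (adjusted p from limma 0.653). Lif, a cytokine of the same family, differed by 2.93 ± 1.18, with 4.76 on slide 1, where the control stood at -5.72, and 1.11 on slide 3. Fst, which encodes follistatin, was not above background on any array.

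Among relatives of the markers, the annexins and annexin A1 receptors had 6 of 12 above and 0 below without overlap, with a median of 0.78. Anxa11 differed by 1.53 ± 0.44, but by 0.26 on its other probe. Fpr2, a formyl peptide receptor that binds annexin A1, was above background on only 2 arrays and was 1.35-fold higher by the bound. Of 12 other S100 genes 4 lay above and 1 below (median 0.21), with S100a6 at 0.79 ± 0.46. S100a14 was above background on only 2 arrays and gave 2.72 and 0.02 within the slides. Of 15 other intermediate filament genes 5 lay above and 2 below (median 0.20), led by the muscle and pericyte filament Des at 2.05 ± 0.49 and the epithelial keratin Krt8 at 1.63 ± 0.55 on its brightest probe and 0.36 on the other. Of 14 other genes of glutamate transport and glutamine metabolism 5 lay above and 1 below (median 0.35), with the transporter Slc1a1, above background on 4 arrays, at 1.90 and 1.05 within the slides. Glycolysis genes beside Aldoc were balanced, with 2 above and 2 below of 16 and a median of 0.00. The phosphofructokinases Pfkl and Pfkm differed by -0.75 ± 0.55 and -1.32 ± 0.93, with overlapping arrays. Small heat shock proteins and their regulators beside Cryab had 1 above and 3 below of 12 (median -0.11), with Hspb1 at -0.79 ± 0.45 and the co-chaperone Dnajb1 at -0.60 ± 0.42.

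**Figure D4:**
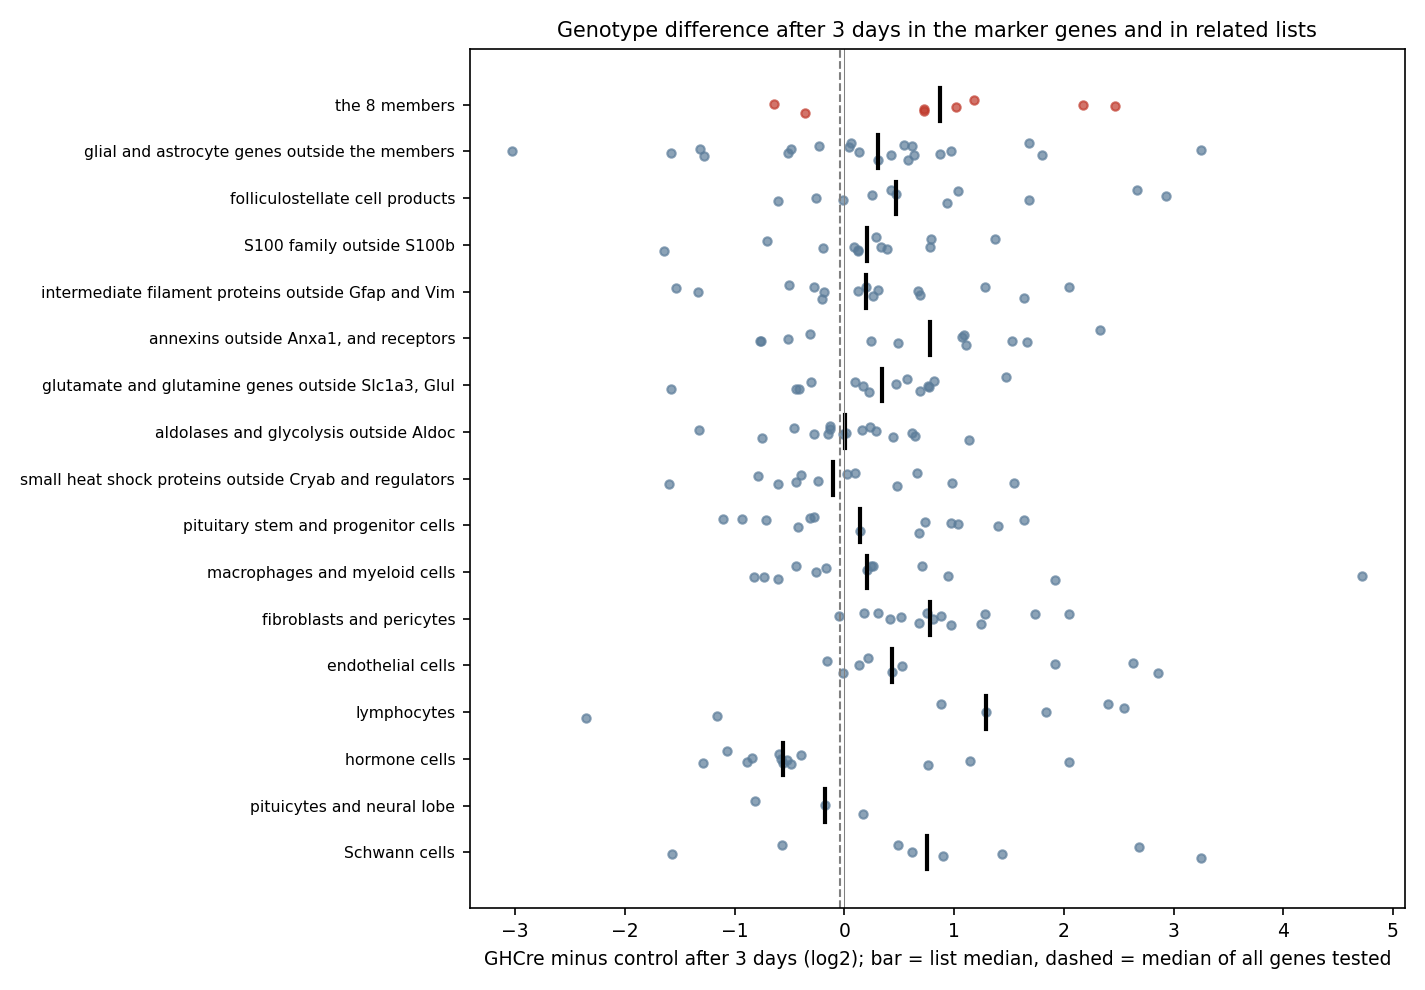
GHCre minus control after 3 days (log2, horizontal axis) for every tested gene of the markers and of the related lists, 1 point a gene on its brightest probe, with a bar at the list median and a dashed line at the median of all genes (-0.04). The medians are 1.29 for lymphocytes, 0.87 for the markers, 0.78 for annexins and for fibroblasts and pericytes, 0.76 for Schwann cells and -0.56 for hormone cells.

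Several of the markers are also made by other cells of the pituitary, and markers of those cells were read in the same way. Fibroblast and pericyte genes had 9 of 14 above and 0 below without overlap, with a median of 0.78, close to that of the markers. Their summed level, in multiples of the array's 75th percentile, was 260.12 and 174.92 on the control arrays and 391.68 and 310.58 with GHCre after 3 days, and 211.34 and 214.09 in control and GHCre after 10 days, and all 14 were above background on every array but replicate 1 of the 3 day controls, where 12 were. Thy1 differed by 1.74 ± 0.70 in that list. Vim, which fibroblasts make in quantity, was likewise highest on the GHCre arrays of 3 days, and the part of these cells in its values was not tested.

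Schwann cells, which share S100b with folliculostellate cells, had 2 of 8 genes above and 1 below after 3 days (median 0.76). Their summed level was 15.54 and 12.26 on the control arrays and 40.91 and 25.92 in the GHCre arrays, then 21.33 and 26.17 after 10 days, and most of it came from Egr2, an immediate early gene as well as a Schwann cell factor (1.44 ± 0.45). Erbb3, above background on only 2 arrays, was 1.47-fold higher by the bound. Endothelial genes had 3 of 9 above and 0 below (median 0.44), with sums of 7.23 and 7.73 on the control arrays and 10.02 and 8.996 with GHCre after 3 days, 7.71 and 6.97 after 10 days, and Tie1 not above background on any array. Emcn differed by 1.92 ± 0.82, and Esam, above background on only 3 arrays, was 2.01-fold higher by the bound. The parts of Schwann and endothelial cells in the markers' values were not tested.

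Macrophage and myeloid genes had 4 above and 3 below of 13 without overlap (median 0.20), and 7 of the differences were above 0 and 6 below it. Their sum was lower in GHCre, at 168.63 and 171.33 against 237.52 and 199.08 for the controls after 3 days, and most of it came from Itgam, which differed by -0.44. C1qc, above background on only 3 arrays, was 5.74-fold higher by the bound, and Cd14 differed by 1.92 ± 0.55. Aif1, C1qa and Mrc1 were not above background on any array. Lymphocyte genes had 2 above and 2 below of 7 without overlap (median 1.29), and 5 of the 7 differences were above 0. The 2 below 0 were those of Cd4 and Cd8a, the latter above background on 4 arrays. They were -1.16 ± 0.43 and -2.35 ± 0.82 on probes whose partners gave 0.18 and -0.21. Hormone cell genes had 1 above and 4 below of 13, with a median of -0.56. Prl, the prolactin transcript, differed by -0.60 ± 0.40, and Pcsk2 by -1.29 ± 0.58. Ghrhr was above background on only 2 arrays and gave 3.28 and 0.81 within the slides. Pituitary stem cell genes had 4 above and 2 below of 13 (median 0.15), among them Notch2 at 1.04 ± 0.51 on its brightest probe and -0.44 on the other.

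Pituicytes, the glia of the neural lobe, also make Gfap, Vim and S100b. Of the pituicyte genes listed, Nkx2-1 and Lhx2 were not above background on any array, Rax was on 1 and Col25a1 on all 6. Of 3 tested genes of that list none lay above or below without overlap (median -0.18), and the neural lobe transcripts Avp and Oxt differed by 0.17 ± 0.45 and -0.81 ± 0.80. The summed level of the list was 0.52 to 0.80 on the 5 arrays other than GHCre after 10 days and 1.51 on that array.

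The list medians moved when 1 array of 3 days was left out. The medians of folliculostellate cell products (0.39 to 0.73), annexins (0.39 to 1.01), fibroblasts and pericytes (0.55 to 1.01), endothelial cells (0.18 to 0.55), lymphocytes (0.73 to 1.24) and Schwann cells (0.22 to 1.24) stayed above 0. Their lowest values came without GHCre replicate 1 for annexins and Schwann cells, without GHCre replicate 2 for folliculostellate cell products and endothelial cells, and without control replicate 2 for lymphocytes and fibroblasts. Those of hormone cells (-0.54 to -0.25) and small heat shock proteins (-0.41 to -0.07) stayed below it. Without replicate 1 of the controls the median was -0.47 for intermediate filament genes and -0.11 for macrophages, and without replicate 2 of the controls it was -0.15 for the S100 family. With GHCre replicate 1 left out it was -0.07 for glial genes and -0.09 for glutamate genes. Without replicate 2 of that group it was -0.31 for intermediate filament genes, -0.01 for macrophages and -0.09 for stem cell genes. The pituicyte median ran from -0.71 to 0.23, and that of glycolysis genes stayed between -0.04 and 0.00.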

How the data were processed

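RNA (1 ng a sample) was amplified with a NuGEN Ovation Pico kit, labelled with Cy3 and hybridised to 6 Agilent arrays in 1 colour, per the labels' protocols. Free-text descriptions of some samples disagree with their titles, and the titles, which match the genotype and treatment fields, were used. Scanning gave a processed signal, a background-subtracted intensity, from Agilent Feature Extraction 10.7.3.1, per the file headers. The deposited series table holds log2 values of 38017 probes, and they correlated with quantile normalized signal at r of at least 0.9999. Its column medians were 5.50 to 5.54. What else the authors did is not given in the sources used here.

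From 43020 spots that are not controls, log2 intensity was averaged per probe without flagged spots (32 probe values with every spot flagged were kept), and the log2 of the array's 75th percentile (186.15 to 298.51) was subtracted. No probe was saturated. Names were updated from RefSeq by accession for 27234 probes, by symbol for 3576 and by synonym for 565, and 8054 kept the file's name. Each gene was taken by its probe of highest mean level where that was well above background on at least 2 arrays (20920 genes, 16320 with a symbol). A probe fit held 27249 probes, 10 of the 12 marker probes among them. limma 3.58.1 in R 4.3.3 fitted 4 group means to 6 arrays leaving 2 residual degrees of freedom, which the 3 day groups supply, beside 2.03 from the variance prior (SD 0.55). The fit was tested on simulated data. The number of arrays limits the precision.

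The marker genes and the 16 lists were chosen with earlier results of these data known. Named are all 8 markers, Gh and Prl, up to 2 tested genes of lowest p after 3 days in each list, and 3 nearest genes per marker measured on all arrays. List medians were recomputed without each 3 day array, a choice made after seeing the data. Itgam and genes named as rarely or not above background were picked as defining markers after their values were seen, and some items of the lists are not reported here. Replicate numbers were not shown to pair the arrays. Alternatives are given in the closing section. The plots used Python 3.11.15 and matplotlib 3.10.9.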

Additional observations from a re-analysis of the deposited data

Results flagged for a closer look

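In 4 markers the GHCre array of 10 days lay below its control while both slides of 3 days gave the opposite sign. S100b differed by -2.003 after 10 days, against 0.36 and 2.01 within the slides after 3 days. Slc1a3, not above background on 3 arrays, differed by -2.84, against 2.11 and 2.83. Aldoc differed by -2.97, against 4.15 and 0.20, and Glul by -0.47, against 0.93 and 0.52. The difference of the effects was tested with limma and did not pass for any of them, with an adjusted p of 0.9999 for each. The control of 10 days is the only array on its slide, so slide and group cannot be told apart for it.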

How the results depend on the processing

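Across 14 alternative settings no gene was called in any comparison, and genes at an unadjusted p under 0.05 after 3 days ranged from 784 to 2283. The count of 6 markers above the controls without overlap, recounted after seeing the data with 4 other normalizations or sources and with the mean of all probes, was 6 in each of these 5 (leaving out an array cannot lower it), and that of 3 markers at least 2-fold lower after 10 days was 2 or 3 in 5. With normexp and 75th percentile scaling the median of all genes after 3 days shifted to -0.15 from -0.04. Sign changes were few and sat on differences near 0 or on Gfap, and their cause was not tested. Anxa1 after 10 days was -0.0205 in the series table. Vim in control over time was 0.0947 with quantile normalization, 0.0494 and 0.143 with normexp and either scaling, and 0.0770 in the series table. Gfap in GHCre over time was -0.0666 with quantile normalization, -0.0063 with normexp and quantiles, and -0.0676 in the series table. With the replicate number as a block, S100b and Glul in control over time were -0.317 and -0.0062, and the slide as a block gave 0.25 for Cryab in GHCre over time. The numbers are not shown to pair the arrays (correlation of deviations 0.09 over 27249 probes), and the replicate block changed no call. Leaving out 1 array of 3 days gave -0.57 to 0.42 for Cryab in GHCre over time, -0.19 to 0.12 for Vim and -0.73 to 1.28 for S100b in control over time, and for Gfap -1.18 to 0.20 in control over time, -0.12 to 0.77 in GHCre over time and -1.04 to 0.33 between genotypes after 3 days. The slide block could not be fitted where the control of 10 days enters, and Gfap and Slc1a3 drop out where signal on all 6 arrays is required. Dim signal limits Gfap and Slc1a3 most, and single arrays limit every value of 10 days.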
